A study of Mus musculus with 5 samples.

Results

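Glul, which encodes glutamine synthetase, and 8 further genes that hepatocytes around the central vein are known to express were followed through 24 h without food. The other members were Oat, Slc1a2, Rhbg, Axin2, Lgr5, Tbx3, Lhpp and Cldn2. They were chosen by symbol, and each of the 9 symbols matched 1 of the 32285 genes in the deposited table. No measured value of these libraries entered that rule, although earlier results of the same data were known. Values were taken over 28810 hepatocytes of 50000 deposited barcodes, kept with at least 1000 UMIs (unique transcript counts), at least 500 genes and 2% to 30% mitochondrial UMIs.

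Hepatocytes had been isolated from male wild-type (WT) C57BL/6J mice on normal chow lab diet and sequenced as single cells in droplets (10x 3′ v3). The study asked how gluconeogenic genes behave across the liver lobule between fed, fasted and starved states. Training came first in all groups: on 3 days, mice went without food for 16 h overnight and had it for 8 h by day. On the last day all of them received food together with drinking water that held 20% sucrose. The fed library (0 h) was taken after 4 h of feeding. For the other libraries, both food and sucrose water were removed and the samples followed after 4, 8, 16 or 24 h. By the clock the 5 samples fell at hours 13, 17, 21, 5 and 13, so that hour of day and time without food cannot be told apart except between 24 h and 0 h. There was 1 library per time, and the sources used here do not give the number of animals behind each. The differences below therefore compare libraries and not feeding states, no test across animals was possible, and every interval is a 95% interval that covers counting error only.

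In the liver lobule, blood flows from portal vessels to a central vein, and hepatocytes along this path express different genes. Endothelial cells of the central vein release Wnt ligands and R-spondin, which keep beta-catenin active in the nearest hepatocytes. These perivenous cells take up ammonium and glutamate that escaped the urea cycle upstream and turn them into glutamine. Cyp2e1, a drug-metabolising cytochrome P450 of the wider pericentral zone, served here as the axis of position.

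Glutamine formation is represented by Glul, by Oat, a mitochondrial aminotransferase that makes glutamate from ornithine, by Slc1a2, a glutamate transporter, and by Rhbg, an ammonium transporter. Axin2, a feedback inhibitor of Wnt signalling, Lgr5, a receptor for R-spondin, and the transcription factor Tbx3 are known Wnt targets. Lhpp, a histidine phosphatase, and Cldn2, a tight junction protein, complete the set. Glul lies at chr1:153899944-153909723 (GRCm38, GENCODE M21), Slc1a2 at chr2:102658659-102790784 and Cldn2 at chrX:139800828-139811386. Oat (chr7:132557478-132576398, minus strand) and Lhpp (chr7:132610638-132706420, plus strand) are near neighbours. Only 34239 bases and 2 annotated genes, Nkx1-2 and Gm16764, separate them. Rhbg shares most of its span with the predicted gene Gm38392 on the same strand, and Oat and Lhpp lie within a span annotated for Fgfr2 on the minus strand. Glul overlaps Teddm2 on the opposite strand, and Lgr5 overlaps A930009A15Rik likewise. Antisense genes lie over Slc1a2, Axin2, Tbx3 and Lhpp. Whether strand was used in counting is not given in the sources used here, and strand would not separate overlaps on the same one, so counts of these genes carry that uncertainty.

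The RefSeq table of promoter windows (GRCm38.p6, 250 bases before to 50 after a start site) held 5 of the 9 members. They were Glul, Oat, Slc1a2, Axin2 and Cldn2, and the other members are Rhbg, Lgr5, Tbx3 and Lhpp. The windows of the 3 glutamine genes on which most results turn are shown, 5′ to 3′ on the strand of the gene, with any match on either strand in capitals. The motifs searched were CTTTGAT as the preferred form, then CTTTGTT as a first variant, CTTTGAA as another and CTTTGTA as the last. These are forms of the core bound by TCF/LEF factors, the partners of beta-catenin. The windows lie at chr1:153899679-153899978 (plus strand, Glul), chr7:132576349-132576648 (minus strand, Oat) and chr2:102706188-102706487 (plus strand, Slc1a2).
Glul: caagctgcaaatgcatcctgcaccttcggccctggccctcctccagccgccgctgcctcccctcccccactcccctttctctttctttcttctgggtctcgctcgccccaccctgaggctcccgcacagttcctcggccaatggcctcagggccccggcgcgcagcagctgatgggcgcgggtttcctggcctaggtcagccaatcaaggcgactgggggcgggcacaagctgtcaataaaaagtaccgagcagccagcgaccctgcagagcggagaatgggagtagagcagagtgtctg
Oat: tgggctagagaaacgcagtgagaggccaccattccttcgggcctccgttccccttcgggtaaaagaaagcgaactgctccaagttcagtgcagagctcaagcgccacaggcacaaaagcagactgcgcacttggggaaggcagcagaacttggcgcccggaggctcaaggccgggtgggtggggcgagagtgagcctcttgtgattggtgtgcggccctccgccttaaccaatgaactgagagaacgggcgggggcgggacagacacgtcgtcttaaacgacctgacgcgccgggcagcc
Slc1a2: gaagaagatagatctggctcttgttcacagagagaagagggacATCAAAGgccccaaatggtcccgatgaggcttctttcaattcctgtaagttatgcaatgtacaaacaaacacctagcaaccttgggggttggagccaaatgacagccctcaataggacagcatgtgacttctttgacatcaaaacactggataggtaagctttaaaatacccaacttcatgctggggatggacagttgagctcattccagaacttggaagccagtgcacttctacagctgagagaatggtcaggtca
The Slc1a2 window held 1 match, CTTTGAT read on the opposite strand, and the windows of Glul, Oat, Axin2 and Cldn2 held 0. Of all 32851 windows in the table, 5544 (16.9%) held at least 1 match, so 1 of 5 is close to that share. The Slc1a2 window belongs to a start site 47779 bases inside the gene as GENCODE M21 draws it.

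The 5 libraries held 7826, 4567, 2716, 9125 and 4576 hepatocytes at 0, 4, 8, 16 and 24 h, with totals of 40002260 to 68330252 UMIs each and median UMIs of 4391 to 15005 per cell. All 8 hepatocyte markers were at 2636 CPM or more (UMIs of a gene per 1000000 non-mitochondrial UMIs) in each library. Barcodes that also carried markers of another cell type made up 0.219% to 2.94%, most in the fed library, where the 13 endothelial markers summed to 115 CPM against 15.6 to 40.3 CPM in the others. The 10 pairs of libraries shared 22 to 30 barcode sequences. Another scaling, TMM, shifted the fasted libraries up by 0.06 to 0.24 on the log2 scale relative to fed.

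Glul was highest in the fed library and lower at all 4 later times. In time order its level was 202 CPM (198 to 207), 89.4 (86.7 to 92.2), 65.8 (63.1 to 68.6), 98.0 (94.7 to 101) and 52.8 (50.5 to 55.2). The log2 ratios to fed were -1.18, -1.62, -1.04 and -1.94. None of the intervals of these levels overlapped, so the order of the 5 libraries was larger than counting error throughout. At 4 h the ratio ranged from -1.30 to -0.94 under other settings, and it missed 2-fold with cells limited to 2% to 15% mitochondrial UMIs (-0.94) and under TMM (-0.96). At 16 h it stood close to 2-fold and moved to between -1.08 and -0.84.

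Oat did not follow Glul. In time order it was at 146, 302, 101, 251 and 26.1 CPM. The 4 h and 16 h libraries were thus above fed and the 8 h and 24 h libraries below it, with no overlap of intervals. The log2 ratios to fed were 1.05 at 4 h and -2.49 (-2.59 to -2.39) at 24 h. The 4 h value is at the 2-fold line and fell to 0.93 with mitochondrial UMIs in the denominator.

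Slc1a2 had the same order of libraries as Oat apart from the places of 4 h and 16 h, over a wider range. Its levels were 11.7, 22.1, 3.58, 28.5 and 0.665 CPM in time order, the last from 25 UMIs. The 24 h library was 17.5-fold below fed (log2 -4.13, -4.78 to -3.55) and 42.8-fold below 16 h. With cells limited to 2% to 15% mitochondrial UMIs the log2 ratio at 24 h was -2.92. Rhbg was sparse, at 1.19, 1.71, 1.09, 1.37 and 0.346 CPM in time order. Its first 4 libraries overlapped, and only the 24 h library (13 UMIs) lay below them (log2 to fed -1.78, and -1.05 as a mean of per-cell CPM).

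Among the Wnt targets, all 3 were lowest at 24 h and highest at 16 h. Axin2 was at 1.46, 2.11, 1.42, 2.95 and 0.319 CPM, and its 4 h and 16 h intervals overlapped. Lgr5 was at 0.979, 0.900, 0.148, 1.70 and 0.0532 CPM, the 8 h and 24 h values resting on 5 and 2 UMIs and overlapping each other. Tbx3 was at 4.18, 7.14, 5.32, 10.8 and 1.09 CPM. For Tbx3 the 16 h library stood above fed (log2 1.36, 1.09 to 1.64) and the 24 h library below it (-1.94, -2.47 to -1.43). For Lgr5 the 8 h library stood apart from fed (log2 -2.73, -4.43 to -1.38) while Axin2 at 8 h could not be told from fed (-0.04, -0.63 to 0.55).

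Lhpp was at 1.98, 5.34, 4.97, 5.19 and 0.426 CPM. The 3 libraries from 4 h to 16 h overlapped each other and lay above fed, so Lhpp, unlike its neighbour Oat, was above fed at 8 h (log2 1.32, 0.92 to 1.74). Cldn2 was at 22.6, 18.8, 5.88, 48.6 and 3.49 CPM, with no overlap between any libraries. It stood 2.15-fold above fed at 16 h and 6.49-fold below fed at 24 h (log2 -2.70, and -3.49 with 2% to 15% mitochondrial UMIs). Under that same limit its log2 ratio at 4 h moved from -0.27 to -1.07, and that of Lgr5 from -0.12 to -2.33.

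**Figure D1:**
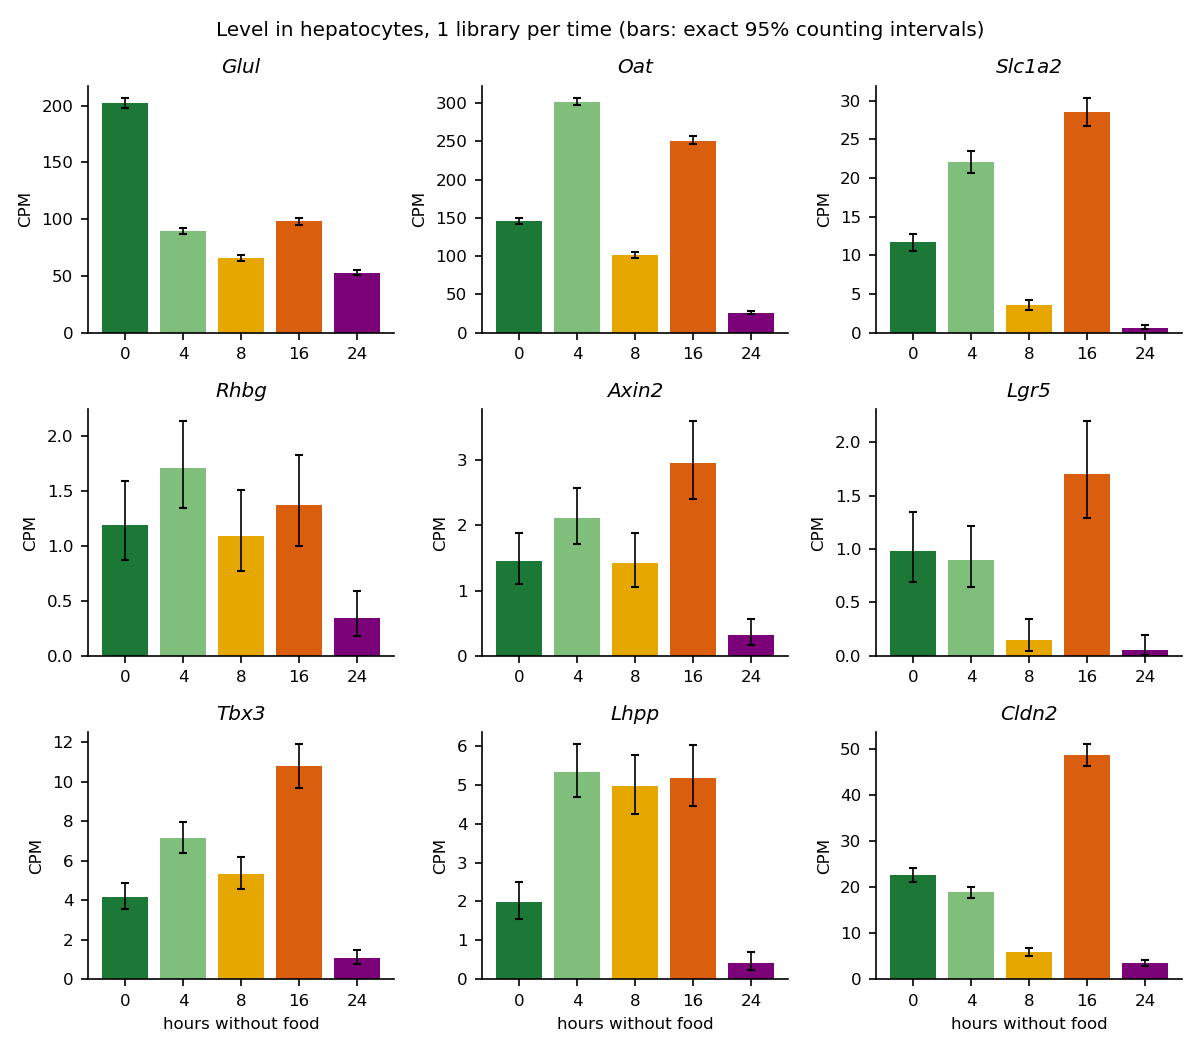
Level of each member (CPM, linear axis from 0) in the hepatocytes of each library against hours without food; bars are the level of 1 library and whiskers exact Poisson 95% intervals. Glul is highest in the fed library (202 CPM) and Oat at 4 h (302 CPM), and all 9 members are lowest at 24 h.

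Calls counted a member when it differed from fed by 2-fold or more and reached 10 CPM in either library, which 4 or 5 of the 9 did. At 4 h, 1 member was higher (Oat) and 1 lower (Glul), where 3.67% of all genes were higher and 6.04% lower. At 8 h, 0 were higher and 3 lower (Glul, Slc1a2 and Cldn2), against 5.68% and 11.2% of all genes. At 16 h, 3 were higher (Slc1a2, Tbx3 and Cldn2) and 1 lower (Glul), against 2.87% and 3.60%. At 24 h, 4 were lower (Glul, Oat, Slc1a2 and Cldn2) and 0 higher, against 8.77% and 4.73%. Glul and Oat reached the minimum in every library. Slc1a2 and Cldn2 passed at 8 h and 24 h through the fed library alone, and Tbx3 at 16 h through the 16 h library alone, so their passing all but fixes the call and nothing is read from these counts. These 4 comparisons share the fed library. Against the library before it, the 8 h library had 3 members lower (Oat, Slc1a2 and Cldn2) and 0 higher, where 2.06% and 1.12% of all genes were. The 16 h library had 4 higher than at 8 h (Oat, Slc1a2, Tbx3 and Cldn2) and 0 lower, where 10.5% and 7.25% of all genes were. The same 4 members were lower at 24 h than at 16 h and 0 higher, where 5.78% and 5.19% of all genes were. In these comparisons Slc1a2 and Cldn2 passed through the library where they were higher alone, and so did Tbx3 beside 16 h, so nothing is read from these counts either. With no minimum level, a setting added after seeing the data, the log2 ratio of 24 h to fed had an interval below 0 for 9 of 9 members and for 34.2% of the 17373 genes with a UMI in either library.

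Cyp2e1 moved with several of these sums, at 1404, 2197, 1130, 2304 and 478 CPM. The cells with at least 50 Cyp2e1 UMIs per 10000 made up 11.5%, 20.2%, 11.3%, 18.9% and 3.78% of hepatocytes. A lower sum can come from fewer captured cells of the perivenous kind or from less RNA in each, and the sums alone do not tell these apart.

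The members were therefore read at a fixed Cyp2e1 level, a choice made after seeing the data. Within cells of at least 50 per 10000, Oat was at 1031, 1313, 889, 1132 and 213 CPM in time order. Slc1a2 was at 103, 117, 36.6, 148 and 10.7 CPM in those cells. Both were thus lowest at 24 h also among Cyp2e1-rich cells, of which the 24 h library held 173. Glul in the same cells was at 481, 299, 165, 391 and 67.0 CPM, so the 16 h library came nearest to fed. Lhpp in these cells was at 11.1, 21.7, 44.9, 24.6 and 5.79 CPM, highest at 8 h, and Cldn2 at 129, 80.5, 38.4, 163 and 40.5 CPM. At 24 h the interval of Lhpp (2.33 to 11.9, from 7 UMIs) overlapped that of fed (7.97 to 14.9). So did those of Tbx3 (16.5 against 23.4 CPM), Axin2 (3.31 against 6.85), Rhbg (2.48 against 5.53) and Lgr5 (1.65 against 8.43). Oat, Slc1a2, Glul and Cldn2 lay below fed at 24 h without overlap.

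To follow the members along the axis, the hepatocytes of each library were ranked by Cyp2e1 per 10000 UMIs and divided into quintiles. Of the 9 members, 5, 6, 6, 7 and 3 reached 10 CPM in the highest or the lowest quintile in time order. At least 2-fold higher in the highest quintile were 5, 6, 6, 7 and 2 of them, where 1.49%, 1.97%, 1.77%, 2.48% and 0.694% of all genes were higher. None was lower, where 1.12%, 1.61%, 1.29%, 1.62% and 0.723% of all genes were. Only Glul, and Oat outside the 8 h library, reached 10 CPM in the lowest quintile as well. The others passed through the highest quintile alone, which all but fixes the call, and nothing is read from these counts. Cldn2 passed in all 5 libraries, Slc1a2 and Tbx3 in all but 24 h, Lhpp at 4, 8 and 16 h and Axin2 at 16 h alone, while Rhbg and Lgr5 did not pass in any. With no minimum level, added after seeing the data, the interval of the ratio lay above 0 for 9, 9, 8, 9 and 5 of the 9 members in time order, where 12.7%, 17.5%, 15.7%, 17.2% and 9.38% of all genes with a UMI in either quintile did. It held 0 for Rhbg at 8 h and for Glul, Rhbg, Axin2 and Lgr5 at 24 h, and it lay below 0 for 0 members.

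Slc1a2 was nearly confined to the highest quintile, which held 91.8%, 96.0%, 98.3% and 94.0% of its UMIs at 0, 4, 8 and 16 h. Its level there was 67.4, 118, 21.5 and 141 CPM against at most 4.66 CPM in any lower quintile of these libraries. At 24 h the highest quintile held 56.0% of 25 UMIs. Lgr5 was as concentrated, with 89.2%, 100%, 100%, 93.0% and 100% of its 37, 41, 5, 57 and 2 UMIs there.

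Oat was highest in the highest quintile of all 5 libraries. In the fed library its quintiles were at 28.9, 26.4, 24.7, 79.1 and 726 CPM from lowest to highest Cyp2e1. At 8 h they were at 2.96, 2.90, 4.67, 31.0 and 571 CPM. In both, the intervals of the first 3 quintiles overlapped and the last 2 stood above them. Each quintile was then set against the same quintile of fed, a comparison added after seeing the data. The lowest quintile at 8 h was far below that of fed (log2 -3.29, -3.99 to -2.65), while the highest was nearer to it (-0.35, -0.41 to -0.28). At 24 h the order was reversed, with the highest quintile (106 CPM) further below fed (log2 -2.77, -2.91 to -2.64) than the lowest (12.9 CPM, -1.16, -1.52 to -0.81).

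Cldn2 spread further down the axis than Slc1a2. At 16 h its quintiles were at 7.24, 10.2, 8.98, 68.7 and 161 CPM, and the fourth was above that of fed (15.9 CPM). Tbx3 in the highest quintile was at 17.6, 33.6, 29.2, 41.7 and 7.02 CPM in time order, and Lhpp at 8.32, 22.0, 28.7, 23.6 and 2.41 CPM. Axin2 there was at 5.65, 7.86, 6.14, 12.4 and 0.877 CPM. Rhbg was less concentrated, with 48.9%, 75.6%, 27.0%, 67.4% and 38.5% of its UMIs in the highest quintile.

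**Figure D2:**
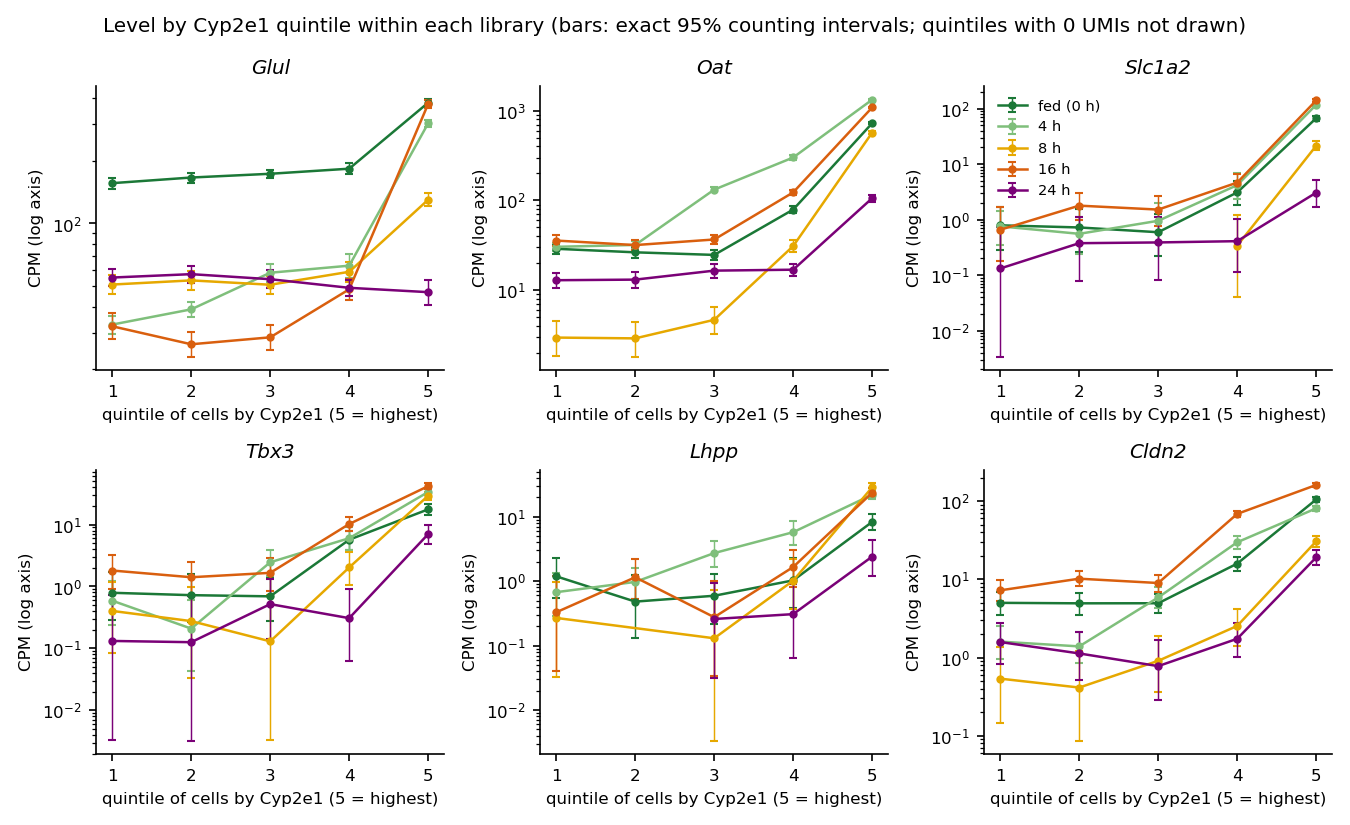
Level (CPM, log axis) of 6 members in quintiles of hepatocytes ranked by Cyp2e1 within each library, 1 line per library, with exact Poisson 95% intervals. Slc1a2, Tbx3, Lhpp and Cldn2 climb towards the highest quintile in all 5 libraries, while Glul is flat at 24 h and rests on a raised floor in the fed library.

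Glul rose less along this axis than most other members in the fed library. Its interval of the highest to lowest ratio there lay below those of all others except Rhbg. Rhbg, which was sparse, overlapped Glul in this ratio in every library, so these genes could not be told apart by it. In the fed library the Glul quintiles were at 156, 166, 173, 183 and 379 CPM, so cells without detected Cyp2e1 carried a high level too. At 16 h the quintiles were at 32.2, 26.4, 28.5, 48.4 and 374 CPM. In the highest quintile the log2 ratio of 16 h to fed was -0.02 (-0.10 to 0.06). These quintiles were not matched in Cyp2e1, with medians of 59.0 per 10000 in fed and 89.5 at 16 h. In cells of at least 50 per 10000, Glul was at 481 CPM (459 to 503) in fed and 391 (376 to 407) at 16 h, with no overlap.

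At 4 h the quintiles were at 32.8, 38.8, 58.1, 62.8 and 302 CPM, with the highest quintile nearer to fed (log2 -0.33, -0.41 to -0.25) and the lowest far below it (-2.25, -2.42 to -2.08). At 8 h they were at 51.0, 53.4, 50.9, 58.7 and 130 CPM, and the 5 log2 ratios to fed lay between -1.76 and -1.54. At 24 h the profile was flat, at 55.1, 57.2, 54.1, 49.2 and 46.9 CPM, but the first 3 quintiles held only cells without Cyp2e1, in random order. At fixed Cyp2e1 levels of under 5, 5 to 20, 20 to 50 and at least 50 per 10000, Glul was at 53.2, 39.9, 44.8 and 67.0 CPM. The last interval (53.2 to 83.2) lay above that of 5 to 20 (30.8 to 50.7) and overlapped that of under 5 (50.7 to 55.7). The highest quintile at 24 h was 8.07-fold below that of fed, whereas the lowest was 2.83-fold below. The highest to lowest log2 ratio at 24 h was -0.23 (-0.48 to 0.01), and it ranged from -1.04 to 0.34 under other settings. The share of all Glul UMIs that fell in the highest quintile was 29.8%, 60.4%, 32.5%, 72.6% and 10.8% in time order.

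**Figure D3:**
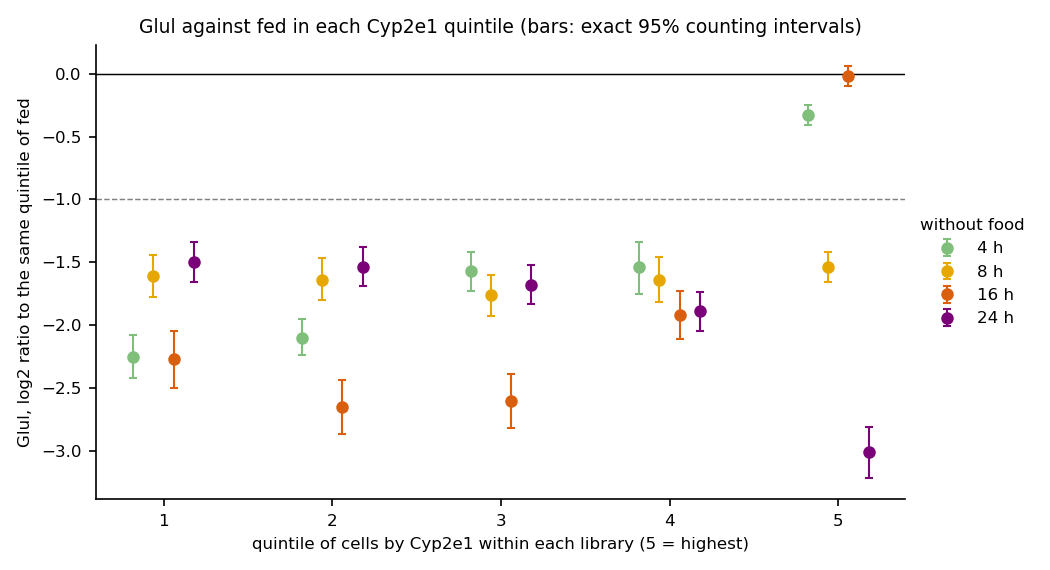
Glul in each Cyp2e1 quintile of the fasted libraries as the log2 ratio to the same quintile of the fed library; points are libraries, bars exact conditional binomial 95% intervals, the solid line equality and the dashed line 2-fold lower. The 4 h and 16 h points rise to -0.33 and -0.02 in the highest quintile, while the 24 h point falls to -3.01.

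Leaving out barcodes with markers of another cell type gave -0.34 and -0.03 for the highest quintile at 4 h and 16 h, and -2.23 and -2.27 for the lowest. With no lower limit on mitochondrial UMIs, the ratios at 4 h were -2.09, -1.02, -0.56, -1.25 and -0.52 from the lowest to the highest quintile. In the main setting they were -2.25, -2.10, -1.57, -1.54 and -0.33. Barcodes under that limit, which hold few mitochondrial UMIs, had Glul at 144, 113, 55.0, 145 and 34.6 CPM in time order. The lowest quintile of hepatocytes was at 156, 32.8, 51.0, 32.2 and 55.1 CPM. It overlapped these barcodes at 0 h and 8 h, lay below them at 4 h and 16 h (where they held 57 Glul UMIs) and above them at 24 h. The part of free RNA in the fed floor was not tested.

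The quintiles were not alike in depth or in Cyp2e1. All cells of the lowest quintile at 0, 8, 16 and 24 h lacked a Cyp2e1 UMI, so the order of cells without one was random. The median Cyp2e1 of the highest quintile was 59.0, 89.0, 56.8 and 89.5 per 10000 at 0 to 16 h and 8.83 at 24 h. At 24 h the highest quintile was also the shallowest, with a median of 3042 UMIs against 9388 to 13243 in the lower ones, and at 4 h the medians were 18853, 20016, 5966, 1971 and 10531 UMIs from the lowest to the highest quintile. The part of depth in the profiles was not tested.

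The share of cells with a Glul UMI was compared at 1 depth. Each cell was thinned to 1000 non-mitochondrial UMIs, which left out 0, 4, 25, 122 and 0 shallower cells in time order. At this depth 15.1% of fed cells had a Glul UMI, against 5.87%, 6.65%, 4.59% and 4.74% at 4, 8, 16 and 24 h. Before thinning these shares were 49.1%, 32.9%, 44.7%, 13.7% and 27.7%, at median non-mitochondrial depths of 4702, 9401, 13643, 3782 and 7201 UMIs in the cells that were thinned. Endothelial-marker barcodes had shares of 28.3%, 57.1%, 55.6%, 25.5% and 32.1% at median depths of 1719, 3527, 1667, 1237 and 2926 UMIs, from 293, 7, 18, 55 and 28 barcodes. They were not a separate group, as 172, 7, 10, 51 and 18 barcodes with these markers also met the hepatocyte rule and were counted there. The hepatocyte shares lay below those of the endothelial-marker barcodes. Those barcodes, however, had Glul at 363, 1014, 999, 327 and 314 CPM, above hepatocytes in every library, so for Glul they are no measure of free RNA. The part of free RNA in the Glul-positive share was not tested.

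The spread of Glul counts among cells also differed between libraries. The variance of thinned Glul counts over their mean, which is 1 for purely random counts, was 2.13, 3.24, 1.52, 8.14 and 1.13 in time order. At 2000 UMIs per cell it was 4.13, 7.42, 1.70, 14.9 and 1.10. The highest count in 1 thinned cell was 21, 15, 7, 28 and 4 UMIs. At both depths the value was highest at 16 h and lowest, near 1, at 24 h.

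For Oat the share of positive thinned cells was 9.52%, 21.7%, 6.73%, 13.3% and 3.10%, against 17.7%, 14.3%, 0%, 10.9% and 7.14% of endothelial-marker barcodes. The fed share was below that of the endothelial-marker barcodes (13.5% to 22.6%). At 24 h it was lower too, but their interval, from 2 of 28 barcodes, was 0.877% to 23.5% and held it. In the 3 libraries between, the endothelial intervals reached 57.9%, 18.5% and 22.2%, above the hepatocyte shares. Those barcodes had Oat at 191, 132, 57.1, 140 and 70.8 CPM in time order. In fed and at 24 h that was above hepatocytes, so there they are no measure of free RNA for Oat. For Slc1a2 the shares were 0.856%, 1.18%, 0.334%, 1.37% and 0.0656%. Endothelial-marker barcodes had 1.02% in the fed library, so the fed share was not above theirs. They had 0 of 7, 18, 55 and 28 in the others, where the exact upper limit was 6.49% at 16 h and higher elsewhere. Cldn2 was found in 2.27%, 2.02%, 0.706%, 4.61% and 0.393% of cells, beside 0.683% of endothelial-marker barcodes in the fed library and 0 of them later. The shares of Rhbg, Axin2, Lgr5, Tbx3 and Lhpp were all under 1% of cells.

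Cells with high Glul counts were few. Those with at least 3 Glul UMIs and at least 10 per 10000 numbered 55, 31, 7, 68 and 3 in time order. They were 0.703% (0.530% to 0.914%), 0.679% (0.462% to 0.962%), 0.258% (0.104% to 0.530%), 0.745% (0.579% to 0.944%) and 0.0656% (0.0135% to 0.191%) of hepatocytes. The shares at 0, 4 and 16 h had overlapping intervals. The 8 h interval reached those of 0, 4 and 24 h, and the 24 h interval lay below those of 0, 4 and 16 h. These cells held 14.7%, 40.5%, 9.47%, 58.8% and 0.655% of all Glul UMIs.

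The class is a range cut from a continuous value and not a cell type. Cells between 8 and 12 per 10000 numbered 57, 9, 1, 14 and 2, so the fed class in particular depends on where the line is drawn. At 20 per 10000 and 5 UMIs the numbers were 16, 17, 4, 52 and 1. There the fed share of 0.204% (0.117% to 0.332%) and the 16 h share of 0.570% (0.426% to 0.747%) no longer overlapped. Of the Glul-high cells, 7, 3, 3, 2 and 2 also carried markers of another cell type. Their median Cyp2e1 was 27.8, 129, 106, 139 and 3.00 per 10000, against 2.22, 7.27, 0, 3.45 and 0 in cells without Glul. Their median of Cyp2f2, a periportal cytochrome P450, was 4.73, 0.706, 0, 0 and 0 per 10000, against 17.1, 14.2, 23.1, 16.6 and 14.2.

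At least 2-fold higher in Glul-high cells than in cells without Glul were 8, 8, 8, 8 and 2 of the 8 other members in time order. Of all genes, 12.8%, 15.1%, 33.0%, 9.18% and 32.6% were that much higher and 6.48%, 6.77%, 17.1%, 8.96% and 55.8% that much lower, as 0 members were. The class held 59407 UMIs at 8 h and 8149 at 24 h, so that 1 UMI there already passes 10 CPM. In cells without Glul, 10 CPM was reached by Oat alone and, at 0, 4 and 16 h, Cldn2. Where the other members passed, it was through the Glul-high cells alone, which all but fixes the call, and nothing is read from these counts. Slc1a2 was at 1002, 2075, 1111 and 2184 CPM in Glul-high cells at 0 to 16 h, against 3.56, 1.68, 0.552 and 7.47 CPM in cells without Glul. The Glul-high cells held 51.2%, 60.6%, 54.5% and 56.1% of all Slc1a2 UMIs.

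Oat was 44.2-fold, 45.9-fold, 45.1-fold and 36.5-fold higher in Glul-high cells at 0, 4, 8 and 16 h, and 17.3-fold at 24 h from 4 UMIs. These ratios depend on where the class is drawn. As log2 they lay between 5.19 and 5.52 in the first 4 libraries, against 1.48, 2.62, 1.40 and 3.05 with 1 or more Glul UMI after thinning as the class. At 20 per 10000 and 5 UMIs the fed value was 6.45 and that of 16 h 5.28. Over the settings tried, the fed ratio of Slc1a2 ranged from 3.29 to 9.23 and that of Rhbg from 1.71 to 6.93. Lgr5 was at 22.2, 37.5, 33.7 and 57.0 CPM there, from 5, 11, 2 and 14 UMIs. Rhbg was 68.4-fold, 242-fold, 58.8-fold and 96.8-fold higher there, from 10, 34, 3 and 15 UMIs. Its log2 ratios of 6.10 (4.68 to 7.52) in fed and 7.92 (6.93 to 9.00) at 4 h had overlapping intervals. Cldn2 was the least enriched member at 16 h, at 196 against 43.6 CPM (log2 2.17, 1.72 to 2.58).

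**Figure D4:**
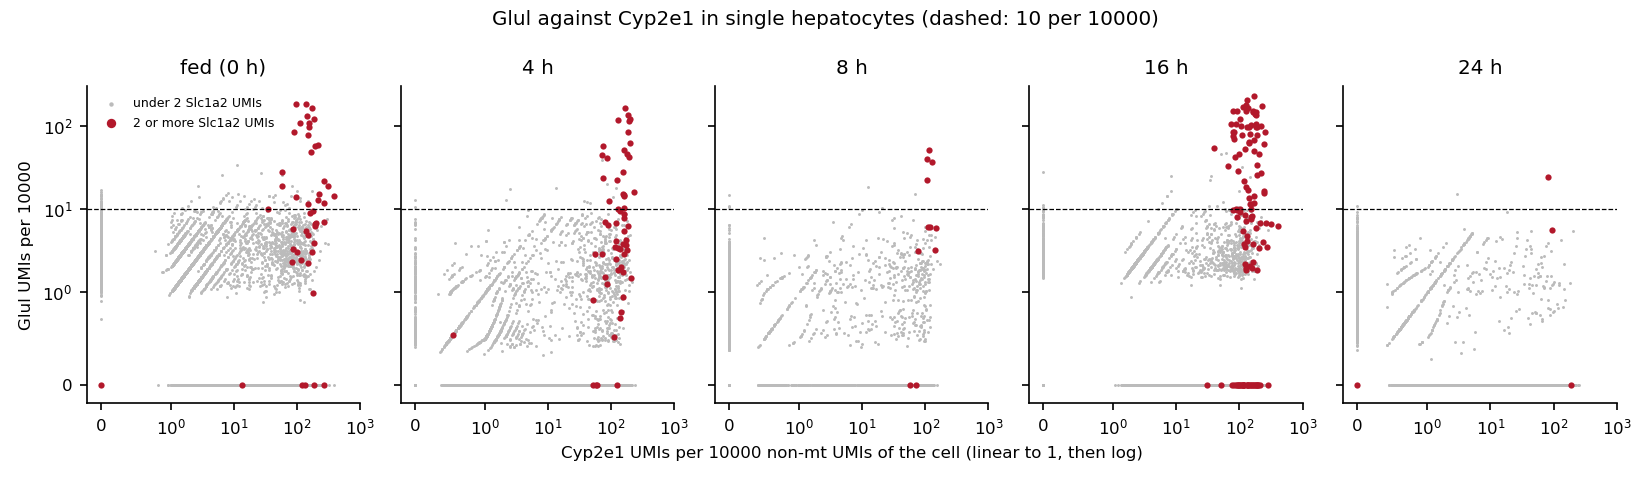
Glul against Cyp2e1 in single hepatocytes of each library, both as UMIs per 10000 non-mitochondrial UMIs on axes that are linear to 1 and logarithmic above; red points have 2 or more Slc1a2 UMIs and the dashed line marks 10 per 10000. Most red points sit at high Cyp2e1, with 45 of 47 in fed and 3 of 4 at 24 h in the highest Cyp2e1 quintile. Red points above the dashed line are most numerous at 16 h and all but absent at 24 h.

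Because that class was chosen by Glul, a second class was drawn without it, by 2 or more Slc1a2 UMIs, a rule added after seeing the data. It held 47, 59, 11, 124 and 4 cells, of which 20, 23, 4, 59 and 1 were also Glul-high. These Slc1a2 cells were 0.601%, 1.29%, 0.405%, 1.36% and 0.0874% of hepatocytes. None of them carried markers of another cell type, and 95.7%, 98.3%, 100%, 98.4% and 75.0% lay in the highest Cyp2e1 quintile. Their median depths were 4852, 14041, 11649, 4402 and 2366 UMIs, and deeper cells reach 2 UMIs more easily.

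Glul in these cells was at 4540 (4265 to 4828), 2550 (2431 to 2673), 1795 (1570 to 2043), 4010 (3833 to 4192) and 620 CPM (228 to 1350) in time order. The intervals of fed and 16 h did not overlap, fed being the highest, and the 24 h library, with 6 Glul UMIs in 4 cells, was lowest. In cells with no Slc1a2 UMI, Glul was at 176, 51.5, 59.3, 39.3 and 52.7 CPM. Outside the Slc1a2 cells the fed library stood apart from all fasted ones, and the 16 h library was lowest.

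The Slc1a2 cells held 0.592% of non-mitochondrial UMIs in the fed library but 13.3% of its Glul UMIs. At 4, 8, 16 and 24 h they held 1.49%, 0.377%, 1.44% and 0.0257% of non-mitochondrial UMIs and 42.5%, 10.3%, 58.9% and 0.302% of the Glul UMIs. Single cells varied widely, from 0 to 182 Glul UMIs per 10000 in the fed library (median 9.99) and from 0 to 228 at 16 h (median 9.73). Of the 124 cells at 16 h, 91 (73.4%) had a Glul UMI, and of the 47 fed cells 41 (87.2%) did.

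At least 2-fold higher in Slc1a2 cells than in cells without Slc1a2 were 8, 8, 8, 8 and 3 of the 8 other members in time order, Glul included. Of all genes, 8.89%, 5.60%, 15.6%, 5.65% and 14.9% were that much higher in time order. None of the members was lower, where 11.6%, 4.15%, 13.1%, 5.13% and 70.1% of all genes were. In cells without Slc1a2, 10 CPM was reached by Glul, Oat and, at 0, 4 and 16 h, Cldn2. Where the other members passed, it was through the Slc1a2 cells alone, Rhbg at 24 h with 2 UMIs, and nothing is read from these counts. Oat was at 6011, 5973, 3284 and 4596 CPM in Slc1a2 cells at 0 to 16 h and at 724 CPM (291 to 1491) at 24 h. Lhpp was at 49.2, 81.0, 219 and 87.0 CPM in the first 4 libraries, highest at 8 h, and 0 of its UMIs fell in the 4 cells at 24 h.

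**Figure D5:**
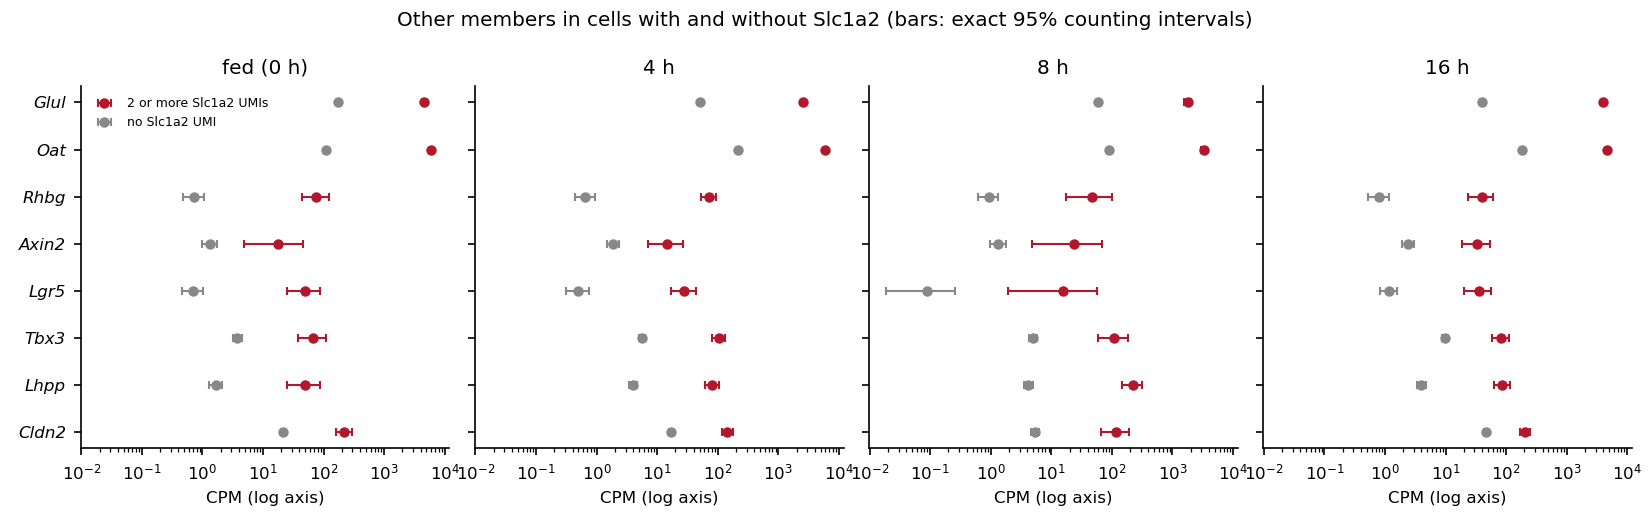
Level (CPM, log axis) of the other 8 members in hepatocytes with 2 or more Slc1a2 UMIs (red) and with none (grey) in the libraries of 0, 4, 8 and 16 h; points are the summed cells of 1 library and bars exact Poisson 95% intervals. Every red point lies to the right of its grey point, and the grey Glul point is furthest right in the fed library (176 CPM).

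Members found together in single cells were counted against the number that their shares predict. Over the 36 pairs, at 1000 UMIs per cell, 13, 13, 5, 18 and 1 pairs had at least 1 expected cell. Of these, 8, 11, 3, 15 and 0 had an interval above a ratio of 1 and 0 below it. Of all pairs of genes with at least 1 expected cell, 2.11%, 1.76%, 0.936%, 1.38% and 2.45% had an interval above 1 in time order, and 1.08%, 0.953%, 0.432%, 0.698% and 1.28% one below it, a count added after seeing the data. Glul and Slc1a2 occurred together in 32 fed cells where 10.1 were expected (3.16-fold, 2.16 to 4.47) and in 63 cells at 16 h where 5.64 were expected (11.2-fold, 8.58 to 14.3). Oat and Slc1a2 shared 43 fed cells (6.74-fold) and 101 cells at 16 h (6.17-fold). The neighbours Oat and Lhpp shared 7, 11, 11 and 29 cells at 0 to 16 h, at ratios of 3.68, 2.11, 9.62 and 4.44. At 24 h the only pair with an expected cell, Glul and Oat, was found in 6 cells where 6.73 were expected.

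Genes outside the set were ranked by how much higher they were in Glul-high than in Glul-zero cells, taking the smallest log2 ratio over the libraries. Over all 5 libraries the leading genes were Nt5e, Cyp2a5, Gulo, Cd36 and Gstm2, but few UMIs at 24 h supported them and barcodes with endothelial markers were among the cells. Repeated over 0, 4 and 16 h without such barcodes, after seeing the data, the first of 2514 genes was Slc13a3, a dicarboxylate transporter (smallest log2 ratio 6.95). It was followed by Serpina7, which encodes thyroxine-binding globulin (4.70), and the pericentral cytochrome P450 gene Cyp2a5 (4.21). Slc13a3 was at 72.1, 82.2 and 78.1 CPM in Glul-high cells, from 15, 23 and 19 UMIs, against 0.132, 0.120 and 0.633 CPM in cells without Glul. Slc1a2 measured in the same way had a smallest ratio of 8.20, with 0 genes above it, and Cldn2 one of 2.18, with 23 above it. In both rankings genes entered by their level in Glul-high cells alone, in the second by 10 or more UMIs in each library. That favours genes high in these cells, and nothing is read from the ranks.

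The wider pathway lists gave the setting. Of 14 Wnt feedback and target genes outside the set, 2 of 7 at the minimum level were at least 2-fold lower than fed at 4 h, 4 of 6 at 8 h and 1 of 7 at 16 h, with 0 higher. Of all genes, 6.04%, 11.2% and 3.60% were that much lower. At 24 h 4 of 6 were lower and 0 higher, where 8.77% of all genes were lower. Ccnd1 reached 10 CPM through the fed library alone at all 4 times, Myc at 8, 16 and 24 h and Notum at 4 h and 24 h. That all but fixes their call, so nothing is read from these counts. The 4 lower at 24 h were Notum, a secreted inhibitor of Wnt ligands, Ccnd1, Myc and Sox9. Notum was at 12.5, 9.27, 10.6, 19.9 and 4.28 CPM in time order, highest at 16 h and lowest at 24 h as the Wnt targets among the members were. It was also higher in the highest than in the lowest Cyp2e1 quintile in all 5 libraries, at 44.6 against 6.46 CPM in fed and 11.6 against 2.89 CPM at 24 h. Myc had another course, at 35.6, 13.4, 2.63, 2.74 and 3.49 CPM.

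Of 14 Wnt receptor genes, 7 reached the minimum at 24 h and 1 was lower, Fzd7 (which passed through fed alone), at 42.2, 7.34, 5.71, 18.2 and 6.89 CPM. Of 20 genes of Wnt signal transduction, 12 did and 2 were lower, Dvl3 and Tcf7l2. Of all genes 8.77% were lower at 24 h, and nothing is read from counts this small. Tcf7l2, a TCF/LEF factor, was at 94.7, 41.6, 35.6, 128 and 46.8 CPM, lowest at 8 h. Its relative Tcf7l1 was lower at high Cyp2e1, at 2.16 against 10.2 CPM in fed and 0.626 against 11.7 CPM at 16 h. None of 9 genes for Wnt ligands and their secretion reached 10 CPM in any hepatocyte comparison with fed.

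Of 29 further genes of glutamine and ammonia metabolism, 20 reached the minimum at each time. At least 2-fold higher than fed were 2, 6, 1 and 3 of them at 4, 8, 16 and 24 h, and 0, 0, 1 and 0 were lower. All 20 reached 10 CPM in both libraries each time. Of all genes, 3.67%, 5.68%, 2.87% and 4.73% were that much higher and 6.04%, 11.2%, 3.60% and 8.77% that much lower. Got1, which exchanges aspartate and glutamate, was at 121, 555, 1331, 207 and 459 CPM, and Slc7a2, a carrier of ornithine and arginine, at 240, 682, 551, 586 and 697 CPM. Both were thus above fed at 24 h, where Glul, Oat and Slc1a2 were lowest. Gls2, the glutaminase of periportal hepatocytes, was at 536, 417, 515, 344 and 539 CPM, and it was lower in the highest Cyp2e1 quintile at 0, 4, 8 and 16 h. Of 18 pericentral landmark genes, Cyp2e1 included, 15 reached the minimum at 24 h, of which 8 were lower and 1 (Nr1i3) higher, with a median of -1.12 beside -0.10 over all genes, and 14 of the 15 reached 10 CPM in both libraries. Of 16 periportal landmarks 4 were higher and 0 lower, with a median of 0.39.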

How the data were processed

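The values the authors deposited are raw UMI counts, in 1 matrix of 32285 genes by 50000 barcodes, and a deposited list ties every barcode to its library. Cell Ranger 6.0.1 and genome build mm10 are named in the submitters' processing notes. The annotation version is not given in the sources used here. All sample columns were used (0 unused). The members and lists were chosen with earlier results of these data known.

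Counts were summed over hepatocytes and divided by their non-mitochondrial UMIs (CPM). Intervals are exact Poisson for CPM, Clopper-Pearson for shares and conditional binomial for ratios, at 95%, and cover counting error only. A gene was called at 2-fold or more with 10 CPM in either group; folds against 0 use a floor of 3 counts. Barcodes carried markers of another cell type with at least 3 of its markers and 20 UMIs per 10000 (erythroid 500). No doublet caller was run, so doublets remain, and an alternative left out the 5% of cells with most UMIs. Named genes were the 9 members, Cyp2e1, genes of a list where its count is given, and those most like Glul; Slc13a3 and Serpina7, Gls2, Tcf7l1 and the courses of Myc and Notum were picked after their values were seen. The scripts were tested on simulated data. Intervals came from scipy 1.17.1, run with pandas 2.3.3 and numpy 2.4.6 in Python 3.11.15, and figures from matplotlib 3.10.9, with edgeR 4.0.16 (TMM) and DESeq2 1.42.0 (size factors) in R 4.3.3 for scaling alternatives only.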

Additional observations from a re-analysis of the deposited data

How the results depend on the processing

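No paired analysis was possible because each time had 1 library. All values are for the hepatocytes of these libraries, and the cause of a change was not tested except where the setting itself removes genes or cells. Of the main counts and shares recomputed under the alternatives, 259 values stayed within 1.5 times or within their interval and 43 did not. Members higher than fed at 4 h numbered 2 (main 1) with 1000 genes, with 2000 UMIs, with 5% to 30% mitochondrial UMIs, under TMM, under median-of-ratios scaling, without a minimum level and without the 5% of cells with most UMIs, and 0 with all UMIs in the denominator or with genes above 1% of UMIs taken out of it. Members lower than fed at 4 h numbered 0 under TMM (main 1). With 2% to 15% mitochondrial UMIs the number was 1, but it was Cldn2 (log2 -1.07) and not Glul (-0.94). Members lower at 16 h numbered 0 (main 1) with 2% to 15% mitochondrial UMIs, no lower limit, TMM, the mean of per-cell CPM and without the 5% of cells with most UMIs. A minimum of 50 CPM gave 1 member lower at 8 h (main 3), 0 higher at 16 h (main 3) and 2 lower at 24 h (main 4). No minimum gave 1 higher at 8 h, 5 higher at 16 h and 9 lower at 24 h. Along Cyp2e1, 50 CPM gave 2 higher at 8 h, 4 at 16 h and 1 at 24 h, 2% to 15% mitochondrial UMIs gave 1 higher and 1 lower at 24 h, and fixed Cyp2e1 levels, added after seeing the data, gave 4 higher at 24 h. In Glul-high cells 50 CPM gave 3 members higher at 0 h. At 24 h that count was 1 with 1000 genes or 2% to 15% mitochondrial UMIs, where 2 were counted in the main setting. Taking 1 or more Glul UMI after thinning as the class gave 2 at 0 h, 3 at 8 h and 0 at 24 h, and there the log2 ratio of Oat at 24 h reversed from 4.11 to -0.04. Thinning to 2000 UMIs raised the Glul-positive share to 28.5%, 11.5%, 12.4%, 8.06% and 8.69% in time order, and the share of Glul UMIs in the top 5% of cells was 39.3%, 65.7%, 50.1%, 85.0% and 61.1%, against 46.0%, 89.5%, 79.1%, 100% and 100% at 1000 UMIs. All 9 members stayed below fed at 24 h in the alternatives run for these ratios, with Glul between -2.07 and -1.76 and Oat between -2.56 and -2.22. Depth limits Rhbg, Axin2 and Lgr5, whose levels rest on 2 to 99 UMIs per library.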
